A study of Homo sapiens with 3 samples.

Results

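Promoter peaks found with both antibodies are described here, that is, places near a transcription start site (TSS) where the ChIP-seq library of the zinc finger protein ZBTB11 and the normal IgG control library both had a called peak. They were selected on chromosomes 1, 10 and 21 as ZBTB11 peaks at least 500 bp wide, within 3 kb of a GENCODE transcript start, that share at least 1 bp with an IgG peak. This rule gave 785 peaks, called shared promoter peaks below, out of 2674 ZBTB11 peaks with the same width and position. The other 1889 overlapped no IgG peak and are called ZBTB11-only promoter peaks. The whole peak lists held 348392 ZBTB11 and 27877 IgG peaks, of which 48395 and 26630 lay on these 3 chromosomes.

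Both libraries came from untreated, wild-type NCI-H1299 cells, an established human lung cancer cell line labelled as lung adenocarcinoma. The cells were fixed with formaldehyde, the chromatin was sonicated, and DNA was recovered with a Bethyl antibody against ZBTB11 or with normal IgG, which is raised against no chromatin protein and serves as the negative control. The labels give the IgG as a CST product, whereas the antibody list of the study's methods names an Invitrogen rabbit IgG for ChIP-seq. An Input library was also made and was not analysed here. Each antibody had 1 library, so no value below has a replicate check. Peaks of 1 library are not replicates, no p-value is given across peaks, and the 95% intervals cover counting error only.

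ZBTB11 belongs to the ZBTB family, whose members pair a BTB domain for protein interactions with zinc fingers that contact DNA. Promoters of broadly used genes are often rich in C, G and CpG, lie in open chromatin and may serve a gene on each strand. In sonicated, fixed chromatin such places can yield DNA with any antibody, and sequences that the genome holds in many copies can collect reads in any library, so a control antibody is used to find them. The sequence C[C/A]GGAAG, where the second base is C or A, resembles the binding site of ETS factors. It was taken from the study, which found it in these same data, so its presence at ZBTB11 peaks is not independent evidence.

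The DNA at or near the ZBTB11 summits is given for single peaks, as examples that are too few to compare the lists. The first 5 below are the shared promoter peaks with the most ZBTB11 fragments, the next 2 are among the 4 with the smallest IgG p-values, and the last 2 are the strongest ZBTB11-only promoter peaks, for comparison. All are from hg38, plus strand, 5′ to 3′. Capitals mark the motif, searched as CCGGAAG or CAGGAAG and as their reverse complements CTTCCGG and CTTCCTG. The ZBTB11-only peaks next in strength, FBXL15, WDR11 and GLUD1P3, had no motif within 50 bp of the summit. Among peaks with at least 50 ZBTB11 fragments, 38.4% of the shared and 33.9% of the ZBTB11-only ones had it. Windows that touch an annotated UTR are cut to 30 bases, which are centred on the motif nearest to the summit where there is one, so that the summit itself can lie outside them.
AURKAIP1, chr1:1375266-1375366: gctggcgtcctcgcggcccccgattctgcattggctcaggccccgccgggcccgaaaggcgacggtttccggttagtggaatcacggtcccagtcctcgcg
BMS1, chr10:42782681-42782781: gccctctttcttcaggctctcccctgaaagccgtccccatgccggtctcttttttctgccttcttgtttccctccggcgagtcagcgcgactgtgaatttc
ITGB3BP, chr1:63523286-63523315: gcgacgaaggatccgggtgtgcgcgagcaa
NMNAT1, chr1:9943394-9943423: tggacgcacgcaCTTCCGGccccctggaac
TMEM222, chr1:27322092-27322121: gattcccgggggaaggccaagcggggcgga
MTND2P28, chr1:629745-629845: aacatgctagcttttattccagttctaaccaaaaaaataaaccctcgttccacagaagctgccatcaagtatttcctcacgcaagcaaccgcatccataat
DUX4L13, chr10:133753735-133753835: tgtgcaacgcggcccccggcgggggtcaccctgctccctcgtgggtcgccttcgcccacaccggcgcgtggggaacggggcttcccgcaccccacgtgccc
DMAP1, chr1:44213407-44213436: ctacaacaccgaCCGGAAGtgtttctgtcg
ENSG00000232995, chr1:163321773-163321802: gcggtgctcccaCTTCCTGcagtccgaggt
The 31 bases centred on the summit occur 23 times in the reference for DUX4L13, a DUX4-like pseudogene, and 2 times for MTND2P28, a nuclear copy of a mitochondrial gene. Those of the 5 promoters with the most ZBTB11 fragments and of both ZBTB11-only promoters occur once.

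Overlap with IgG peaks was measured first, as a share of the wide promoter peaks. It was 29.4% (785 of 2674, Wilson interval 27.7% to 31.1%), while 9.78% of all ZBTB11 peaks on these chromosomes overlapped an IgG peak. Since the rule used this overlap, the share is a description. The shares by chromosome were 29.99% on chromosome 1 (505 of 1684), 26.4% on chromosome 10 (202 of 765) and 34.7% on chromosome 21 (78 of 225). Of wide ZBTB11 peaks farther than 3 kb from any start, 17.4% overlapped an IgG peak (788 of 4533), as did 8.14% of the narrower peaks near a start (659 of 8092). IgG peaks covered 2.20% of the bases of the 3 chromosomes. Most shared promoter peaks met a single IgG peak (725), 59 met 2 and 1 met 3, and 845 IgG peaks were involved.

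The share with IgG overlap rose with the width of the ZBTB11 peak, which sets how much sequence can be met. It was 14.9% for promoter peaks of 500 to 599 bp, 21.3% for 600 to 699 bp, 31.8% for 700 to 799 bp, 38.4% for 800 to 999 bp and 48.6% (44.1% to 53.0%) from 1000 bp. Peaks farther from a start gave 13.7%, 15.9%, 22.6%, 30.03% and 52.3% in the same classes. Thus, in the class from 700 to 799 bp the interval of the promoter peaks (27.2% to 36.9%) lay above that of the others (19.1% to 26.5%), and in the other 4 classes the intervals overlapped. By strength, overlap was found for 17.0% of promoter peaks with 3 to 9 ZBTB11 fragments at the summit, 39.4% of those with 10 to 19, 43.9% of those with 20 to 49 and 44.8% (39.6% to 50.1%) of those with at least 50. These classes also differ in width. Median widths were 666, 887, 955 and 907 bp for shared and 597, 824, 886 and 844.5 bp for ZBTB11-only peaks. The parts of width and strength were not tested.

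**Figure D1:**
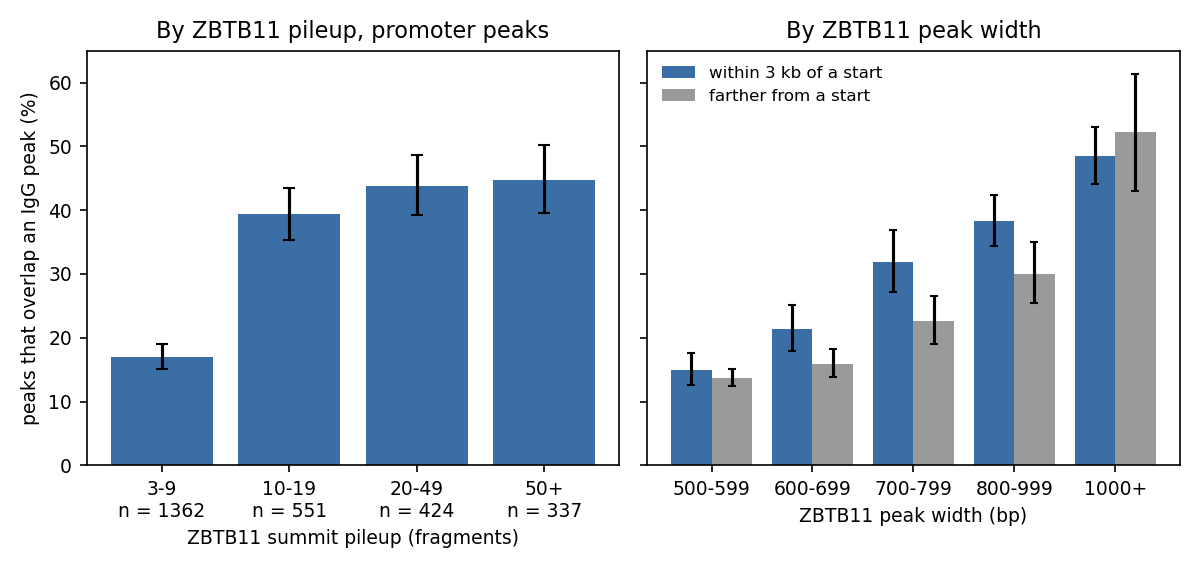
Share of ZBTB11 peaks on chromosomes 1, 10 and 21 that overlap an IgG peak (vertical axes, percent; bars with Wilson 95% intervals) against the ZBTB11 summit pileup of wide promoter peaks (left) and against peak width, for peaks within 3 kb of a transcript start and farther away (right). The share goes from 17.0% in the weakest pileup class to 44.8% in the strongest, and from 14.9% to 48.6% of promoter peaks over the width classes.

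Near the width limit, the narrowest shared promoter peaks passed it by 1 bp. Among them were SRGAP2C (25 ZBTB11 and 9 IgG fragments), the lncRNA ENSG00000289593 (9 and 7 fragments) and CSRP1 (3 and 8 fragments). The widest that fell short missed it by 1 bp, among them DNAJC6 (4 and 6 fragments) and DPH5 (9 and 6 fragments).

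Relative strength was compared next, as summit pileup, the number of fragments that cover the summit. The pileup was solved from the deposited fold enrichment and p-value of each peak. The ZBTB11 pileup of the shared promoter peaks ran from 3 to 494, with a median of 16 and quartiles of 9 and 37, while the ZBTB11-only promoter peaks had a median of 7 and quartiles of 5 and 17. Peaks with at least 100 fragments were about equally many in both lists, 81 shared and 86 ZBTB11-only, although the shared list is the shorter. A q-value of 0.05 or less was listed for 76.4% of the shared peaks (600 of 785) and 47.7% of the ZBTB11-only peaks (901 of 1889), and for 8.12% of all ZBTB11 peaks on these chromosomes. Width, which the rule used, differed in the same way, with medians of 852 and 665 bp.

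On the IgG side the pileups covered a narrower range. Where a ZBTB11 peak met several IgG peaks, the one with the smallest p-value was taken. The IgG summit pileup had a median of 7 (interval 6 to 7) and ran from 4 to 62, and 83.6% of the shared promoter peaks (656 of 785) had at most 8 IgG fragments. The median of all IgG peaks on these chromosomes was 6. An IgG q-value of 0.05 or less was listed at 61 of the 785 (7.77%, 6.10% to 9.86%), beside 4.40% of all IgG peaks. At least 10 IgG fragments were found at 75 of the 785 (9.55%) and at 4.38% of all IgG peaks. Only 50 shared promoter peaks had a q-value of 0.05 or less with both antibodies, and 174 had one above 0.05 with both.

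To set the antibodies on one scale, each pileup was divided by the background of its own library, 1.35 fragments for ZBTB11 and 1.55 for IgG, and the ratio of ZBTB11 to IgG was taken. The median ratio was 2.52 (2.29 to 2.75), with a 10th percentile of 0.955, a 90th percentile of 16.6 and a maximum of 111. ZBTB11 was the weaker at 90 peaks (ratio under 1) and at least 10 times stronger at 131 (16.7%). By ZBTB11 pileup, which is the numerator of the ratio and so makes it rise by construction, the medians were 1.15, 2.29, 4.91 and 17.0 for peaks with 3 to 9, 10 to 19, 20 to 49 and at least 50 ZBTB11 fragments. The median IgG pileup in these classes was 6, 7, 7 and 7. Across the 785 peaks, ZBTB11 and IgG pileup had a Spearman rho of 0.240, a description over regions that share 2 libraries. Using the deposited fold enrichment, which divides by a local background that grows with the peak's own fragments, the median ratio was 1.80.

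**Figure D2:**
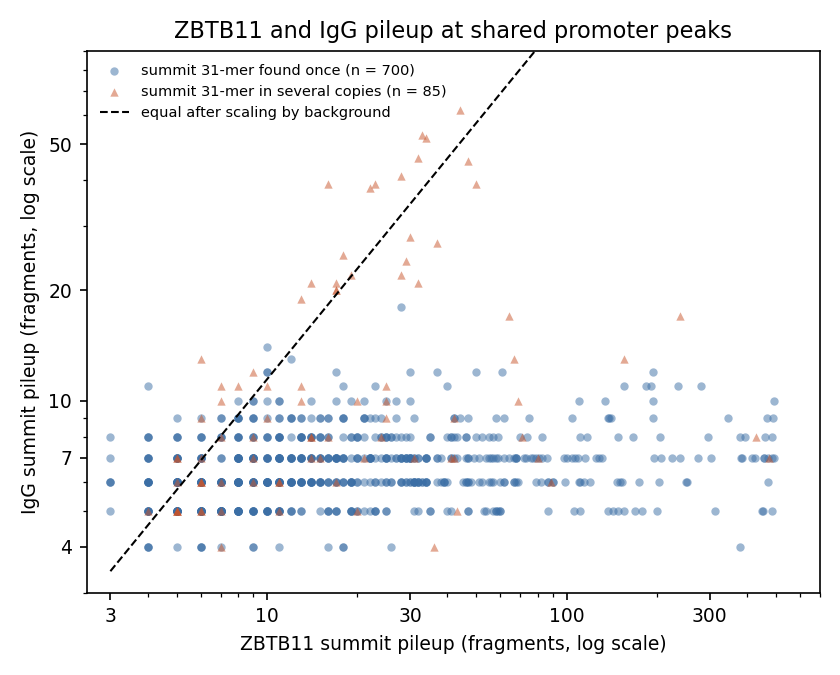
IgG summit pileup against ZBTB11 summit pileup at the 785 shared promoter peaks (fragments, both axes on a log scale), with 1 point per peak. Circles are summits whose central 31 bases occur once in the genome (700), triangles those in several copies (85), and the dashed line marks equal strength after scaling each library by its background. Most peaks lie between 4 and 8 IgG fragments over the whole range of ZBTB11, and all 21 peaks with at least 20 IgG fragments are triangles.

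Strong ZBTB11 promoters led the list. AURKAIP1, whose product is found in the mitochondrial ribosome and binds Aurora kinase A, had 494 ZBTB11 and 10 IgG fragments (chr1:1374868-1375927). BMS1, a GTPase of ribosome assembly, had 494 and 7 (chr10:42782292-42783198). ITGB3BP, a centromere protein, had 488 and 9 (chr1:63522895-63523799), and EFCAB7 also starts under that peak. In all 3, the IgG pileup was 10 or less.
NMNAT1, an enzyme of nuclear NAD synthesis, had 486 and 8 (chr1:9942922-9943857), with LZIC starting under the same peak. TMEM222, a membrane protein gene, had 486 and 7 (chr1:27321698-27322627), and FRA10AC1, next to a fragile site, had 484 and 5 (chr10:93702228-93703121). ZMPSTE24, the protease that matures lamin A, had 474 and 7 (chr1:40257553-40258556). The lncRNA LINC01547 had 472 and 6 (chr21:44939524-44940420), with SLX9, a ribosome assembly gene, starting under the peak. The depth-scaled ratio of these 8 was between 56.6 (AURKAIP1) and 111 (FRA10AC1), and their summits lay 109 bp or less from the nearest start. Among the 81 shared promoter peaks with at least 100 ZBTB11 fragments, IgG ranged from 4 to 17 fragments, 61 had at most 8 and 8 had an IgG q-value of 0.05 or less.

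The largest ratios were at FRA10AC1 (111), the translation initiation factor EIF2D (109, from 379 ZBTB11 and 4 IgG fragments), LTN1, a ubiquitin ligase of ribosome quality control (104, from 453 and 5), SEC22B, a membrane fusion protein (103, from 449 and 5), and LINC01547 (90.1). These are promoters of the kind that lead the ZBTB11-only list too, where the highest pileups were 491 at DMAP1, a chromatin complex subunit, 482 at ENSG00000232995, 480 at FBXL15, 474 at WDR11 and 466 at GLUD1P3, annotated as a lncRNA. ATPAF1, an assembly factor of ATP synthase and the locus on these chromosomes that the study used for ChIP-qPCR, had a promoter peak of 307 ZBTB11 fragments with no IgG overlap (chr1:46667992-46668801).

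The smallest ratios were at GPBP1L1 (0.417, from 4 ZBTB11 and 11 IgG fragments), CSRP1 (0.430, from 3 and 8), the microRNA gene MIR6724-3 of the ribosomal DNA (0.470, from 16 and 39), BEST4 (0.491, from 3 and 7) and the pseudogene DUX4L29 (0.529, from 6 and 13). Among the 90 peaks with a ratio under 1, 72 had 9 or fewer ZBTB11 fragments, and the medians were 5 ZBTB11 and 7 IgG fragments. At such numbers, 1 or 2 fragments decide on which side of 1 a ratio falls.

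IgG strength was also compared by the copy number of the sequence. As a measure, the 31 bases centred on each ZBTB11 summit were counted in the reference without its alternate haplotypes. They occurred more than once at 85 of the 785 shared promoter peaks (10.8%) and at 207 of the 1889 ZBTB11-only ones (11.0%), a difference of -0.130 percentage points (-2.61 to 2.59). In pileup classes from weakest to strongest the pairs were 11.7% and 13.8%, 9.68% and 7.19%, 14.0% and 7.98%, and 7.28% and 4.30%. Thus, the shared list was lower in the weakest class and higher in each stronger one, and no interval was computed for these differences. Within the shared list, the IgG strength differed by copy number. Multi-copy peaks had a median of 8 IgG fragments, with a 90th percentile of 38.6 and a maximum of 62, and single-copy peaks had a median of 7, a 90th percentile of 9 and a maximum of 18. Both classes refer to the ZBTB11 summit, while IgG strength is read at the IgG summit. The 31 bases there occurred more than once at 96 of the 785 (12.2%), so a single-copy peak can have a multi-copy IgG summit. The IgG q-value was 0.05 or less at 34.1% of the multi-copy peaks (29 of 85, 24.9% to 44.7%) and at 4.57% of the single-copy peaks (32 of 700, 3.26% to 6.38%). All IgG peaks gave 4.40%, but these include multi-copy ones and were not chosen by p-value, so this is no like baseline. The median ratio was 1.37 (1.15 to 2.004) for multi-copy and 2.67 (2.45 to 2.93) for single-copy peaks. How the aligner placed reads with several matches was not tested.

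All 21 shared promoter peaks with at least 20 IgG fragments were multi-copy, and 14 of them had a ratio under 1. At the lower limit of 10 fragments the split was even, with 38 of 75 multi-copy (50.7%, 39.6% to 61.7%), and of the 61 peaks with an IgG q-value of 0.05 or less, 29 were multi-copy and 32 single-copy. The families below were grouped after their values had been seen, and 29.4% of all wide promoter peaks were shared. Between 8.2 and 8.5 Mb of chromosome 21, where the assembly holds ribosomal DNA, 12 of the 13 wide promoter peaks were shared. They had 16 to 50 ZBTB11 and 25 to 62 IgG fragments, with a median ratio of 0.790. Among peaks named for 5S ribosomal RNA genes and pseudogenes, 6 of 9 were shared, with 13 to 30 ZBTB11 and 19 to 28 IgG fragments and a median ratio of 0.950. Of 5 peaks at DUX4-like pseudogenes, 3 were shared, all 3 on chromosome 10, with 6 to 29 ZBTB11 and 12 to 24 IgG fragments. Among peaks named for genes annotated as snRNA, pseudogenes such as RNU1-6P included, 11 of 45 were shared, and IgG reached 4 to 11 fragments.

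The 8 smallest IgG p-values were all at multi-copy summits. DDX11L2 had 32 ZBTB11 and 21 IgG fragments, RNA5SP162, a pseudogene of 5S ribosomal RNA, had 17 and 20, MTND2P28 had 19 and 22, and DUX4L13 had 29 and 24. The other 4 lay in the ribosomal DNA of chromosome 21, where the peak named for 5_8S_rRNA had 18 and 25, ENSG00000286148 had 22 and 38, ENSG00000281181 had 47 and 45 and ENSG00000286155 had 44 and 62. Of the 85 multi-copy peaks, 27 were assigned to a protein-coding gene (31.8%), compared with 571 of the 700 single-copy peaks (81.6%).

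Of the 75 shared promoter peaks with at least 10 IgG fragments, the other 37 were single-copy. They had 10 to 18 IgG fragments, and 28 of them were assigned to a protein-coding gene. Chosen after their values were seen, examples are ACOT7, an acyl-CoA thioesterase, with 10 ZBTB11 and 14 IgG fragments, DNAJC16 with 195 and 12, RER1 with 235 and 11, TM9SF3 with 281 and 11, and VIM, which encodes the filament protein vimentin, with 9 and 10. Their ZBTB11 pileup had a median of 25 (17 to 40) and their GC content a median of 68.2%. IgG pileup and GC at the IgG summit had a Spearman rho of 0.0428 across the 700 single-copy peaks, again a description over regions of the same libraries.

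The summits of both antibodies seldom coincided. Their distance had a median of 267 bp (interval 244 to 295), with quartiles of 123 and 460 bp and a maximum of 1669 bp. The summits were within 50 bp of each other at 10.6% of the shared promoter peaks, within 100 bp at 20.8% (163 of 785) and within 500 bp at 79.2%. The signed shift had a median near 0, namely -19 bp along the chromosome (-47 to 17) and 2 bp along the direction of the gene (-29 to 42). The IgG summit lay inside the ZBTB11 peak at 75.3%, the ZBTB11 summit lay inside the IgG peak at 39.4%, and 41.7% of the IgG peaks lay wholly inside their ZBTB11 peak. The width of the peaks limits these distances, since a ZBTB11 peak of 852 bp and an IgG peak of 375 bp, the medians, can share 1 bp with summits far apart.

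The median distance was 236, 283, 257 and 293 bp in the 4 ZBTB11 pileup classes from weakest to strongest, with overlapping intervals. It was 283 bp (253 to 303) at single-copy and 207 bp (161 to 250) at multi-copy summits. At SF3A3, a splicing factor with 456 ZBTB11 and 7 IgG fragments, the summits were 12 bp apart, and at RNA5SP162 2 bp. AURKAIP1 had its IgG summit 465 bp from its ZBTB11 summit, at a sequence whose 31-mer occurs 249 times. The largest distances were at CEP350, a centrosome gene (1669 bp, in a ZBTB11 peak 2047 bp wide), MIR6724-3 (1445 bp) and PPIF, which encodes cyclophilin D of mitochondria (1435 bp).

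**Figure D3:**
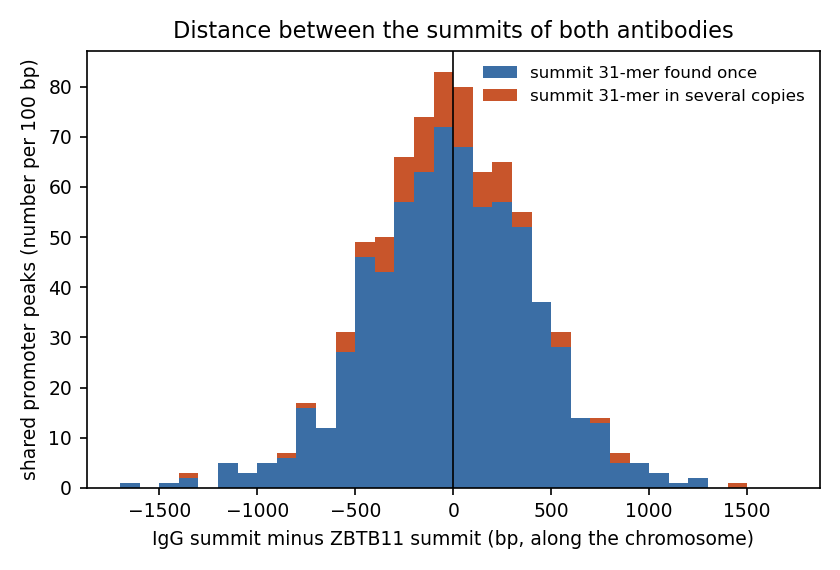
Number of shared promoter peaks per 100 bp of distance between the summits (horizontal axis, IgG minus ZBTB11 position along the chromosome in bp), stacked by whether the 31 bases at the ZBTB11 summit occur once or several times. The distances spread to both sides of 0, with 20.8% of the peaks within 100 bp and 79.2% within 500 bp.

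Both summits were set beside the transcript starts. The rule placed the ZBTB11 peak, and not the IgG peak, within 3 kb of a start, so the values that follow are a description that favours ZBTB11. The ZBTB11 summit was within 100 bp of a start at 42.0% of the shared promoter peaks (330 of 785, 38.6% to 45.5%) and the IgG summit at 24.97% (196 of 785, 22.1% to 28.1%). Median distances to the nearest start were 138 and 258 bp, and the ZBTB11 summit was the nearer at 62.5%. For the 163 peaks with summits within 100 bp of each other, the shares were alike by construction, 34.4% and 33.1%. For the 163 with summits more than 500 bp apart, they were 44.8% (37.4% to 52.5%) and 11.7% (7.59% to 17.5%). GC content differed in the same direction. Its median, taken over the summit and 100 bp to each side, was 66.2% at the ZBTB11 and 62.2% at the IgG summit over all shared peaks, and 67.2% and 56.2% where the summits were more than 500 bp apart. The motif was present at 18.0% of the ZBTB11 summits and 7.39% of the IgG summits.

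Next, the shared promoter peaks were compared with the ZBTB11-only ones in base composition. Over all peaks, GC in the same window was higher in the shared list, with medians of 66.2% (65.2% to 66.7%) and 56.2% (55.2% to 58.2%), a difference of 9.95 points (7.73 to 11.1). The median at all annotated transcript starts of these chromosomes was 55.7%. The ratio of observed to expected CpG had medians of 0.797 and 0.534. The difference in GC was seen among the weakest peaks. For peaks with 3 to 9 ZBTB11 fragments, the shared ones had 60.2% and the ZBTB11-only ones 47.8%, a difference of 12.4 points (8.65 to 15.6). In the classes of 10 to 19, 20 to 49 and at least 50 fragments the differences were 0.498 (-1.30 to 2.99), -0.995 (-3.48 to 0.412) and 1.24 (-1.10 to 4.03), and each interval holds 0. The weak class also differed in width, with medians of 666 bp for shared and 597 bp for ZBTB11-only peaks, and the part of width in the difference was not tested within the class.

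The motif behaved likewise. C[C/A]GGAAG lay within 50 bp of the summit in 141 of 785 shared peaks (18.0%, 15.4% to 20.8%) and in 220 of 1889 ZBTB11-only peaks (11.6%, 10.3% to 13.2%), a difference of 6.32 points (3.36 to 9.47). Equal windows 500 bp to either side held it in 4.65% and 3.89%. It was found in 3.81% of such windows at all ZBTB11 summits and in 8.42% of those centred on annotated transcript starts. The form CCGGAAG made most of the difference, with 12.5% and 6.51%, and CAGGAAG had 6.50% and 5.51%, where a window can hold both. Within pileup classes the shares of shared and ZBTB11-only peaks were 8.66% and 4.77%, 13.8% and 13.5%, 17.7% and 24.4%, and 38.4% and 33.9%. The intervals of the differences excluded 0 in the weakest class (0.587 to 8.36 points) and held it in the other 3.

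Position relative to genes showed the same dependence on strength. Summits within 100 bp of a start made up 42.0% of the shared and 26.6% of the ZBTB11-only peaks, a difference of 15.4 points (11.4 to 19.4), with median distances of 138 and 373 bp. In pileup classes from weakest to strongest the pairs were 19.9% and 11.8%, 43.8% and 41.3%, 46.8% and 47.1%, and 67.5% and 64.0%. A start lay under 76.6% of the shared and 51.1% of the ZBTB11-only peaks. Starts on both strands within 1 kb of the summit were found for 28.5% and 16.9%, which was 38.4% and 38.7% among peaks with at least 50 fragments. The summit fell in an annotated UTR in 24.7% of the shared peaks, a coding exon in 6.24%, a noncoding exon in 12.4%, an intron in 34.4% and outside genes in 22.3%. The ZBTB11-only peaks had fewer summits in UTRs (18.0%) and more in introns (47.3%).

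**Figure D4:**
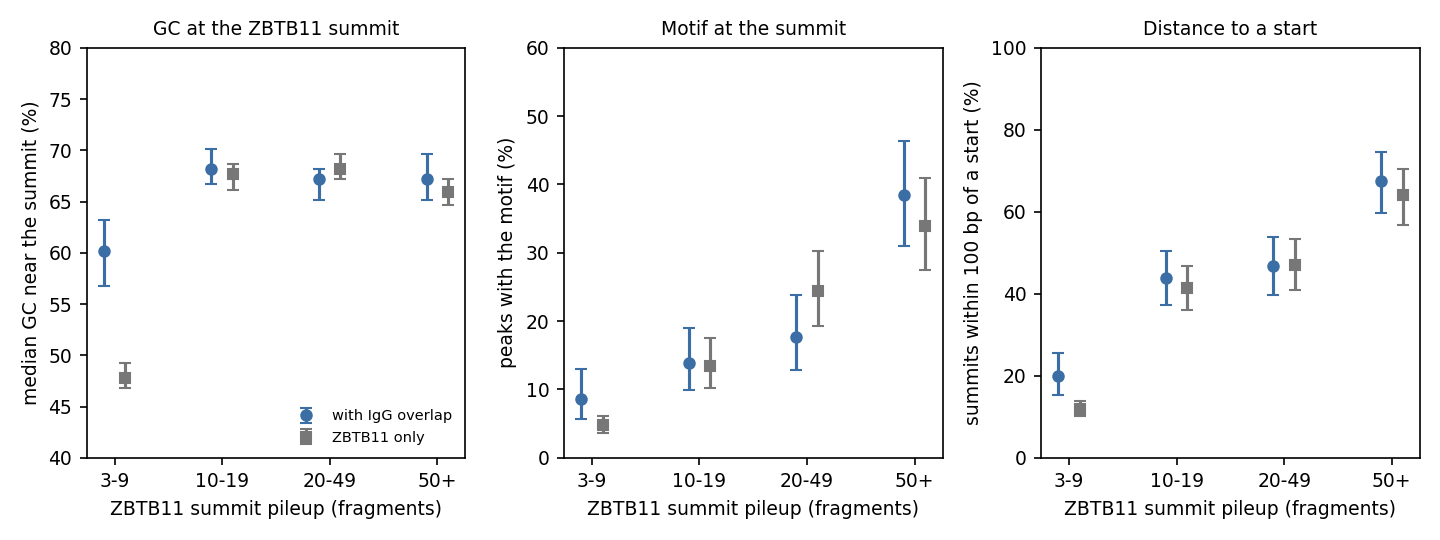
Median GC content (left, vertical axis from 40%), share of peaks with the motif C[C/A]GGAAG (middle) and share with the summit within 100 bp of a start (right), against ZBTB11 summit pileup, for shared (circles) and ZBTB11-only promoter peaks (squares) with 95% intervals. The lists differ among peaks of 3 to 9 fragments, with GC of 60.2% and 47.8%. In that class the motif intervals overlap (5.67% to 13.0% for shared and 3.68% to 6.18% for ZBTB11-only peaks). In the 3 stronger classes the intervals overlap for all 3 features.

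The kinds of gene were compared last. A peak was named by the nearest start to its summit, and other genes may start under it. The shared promoter peaks were nearest to 755 genes, 578 of them protein-coding, and had starts of 1168 genes within 3 kb. A protein-coding gene was nearest at 76.2% of the shared peaks (598 of 785) and 68.9% of the ZBTB11-only peaks (1302 of 1889), a difference of 7.25 points (3.54 to 10.8). By pileup class, the difference was 13.3 points (6.78 to 19.2) in the weakest and 3.35 (-3.97 to 10.3) among peaks with 10 to 19 fragments. It was -12.3 points (-20.5 to -4.26) among peaks with 20 to 49 fragments and -0.926 (-9.48 to 7.34) among those with at least 50. In the class of 20 to 49 fragments, 14.0% of the shared and 7.98% of the ZBTB11-only peaks had a multi-copy summit. Genes for lncRNA made up 16.1% and 17.6%, and pseudogenes 3.18% and 8.84%.

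Of the 8985 annotated genes of these chromosomes, 3127 had a wide ZBTB11 promoter peak, as did 1812 of the 3011 protein-coding genes. Among genes with a wide ZBTB11 promoter peak, 1168 of 3127 (37.4%) had a shared one, as did 733 of 1812 protein-coding genes (40.5%). These shares are the background for the gene lists below, which are small, and nothing is read from them beyond the counts. Genes of mitochondrial ribosomal proteins, which translate the respiratory chain subunits encoded in mitochondrial DNA, had a wide ZBTB11 promoter peak in 12 of 12 and a shared one in 5. Examples are MRPS21 (87 ZBTB11 and 5 IgG fragments), MRPS16 (29 and 6) and MRPL9 (13 and 9). For complex I of the respiratory chain 3 of 3 were shared, among them NDUFV3 (34 and 6) and NDUFB8 (11 and 6).
In the transcription machinery, 4 of 11 were shared, namely the Mediator subunit MED18 (395 and 8) and the TFIID subunits TAF12 (304 and 7), TAF13 (64 and 7) and TAF3 (6 and 7). Spliceosome genes gave 4 of 12, with SF3A3, LSM10 (57 and 6), SF3B4 (20 and 8) and SNRNP40 (4 and 8). At each of these genes except TAF3 and SNRNP40 ZBTB11 had the higher pileup.

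Zinc finger and ZBTB genes had a shared peak in 18 of 37, with a median of 34 ZBTB11 and 6.5 IgG fragments. That list also holds ZNF genes, so the count is not one of the ZBTB family alone. ZBTB37 had 175 and 6 fragments in a peak within 3 kb of a start of the snoRNA host gene GAS5, ZNF496 had 125 and 7, and ZNF485 had 81 and 7. Aminoacyl-tRNA synthetases, which load amino acids on tRNA, gave 2 of 5, among them the mitochondrial IARS2 (114 and 6). Cytosolic ribosomal proteins gave 2 of 4, RPS27 (90 and 6) and RPL5 (11 and 7). The proteasome list gave 2 of 5, the subunit PSMA5 (29 and 7) and the assembly chaperone PSMG1. PSMG1 has a start within 3 kb of a peak named for the lncRNA ENSG00000272991 (9 and 6). Histone genes gave 5 of 8 in 3 peaks of the chromosome 1 cluster, H3C15 (69 and 10), H3C14 (67 and 13) and H4C14 (17 and 6), all at summits whose 31-mer occurs 2 times, so the split of reads between copies is uncertain. Solute carrier genes gave 7 of 24, among them SLC66A1 (57 and 8) and SLC25A44 (30 and 6). Genes for snRNA gave 20 of 59, among them U6 copies beside the strong promoters of TMEM222 and SF3A3, and snoRNA host genes gave 2 of 4.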

How the data were processed

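As the methods of the study state, read pairs were mapped by the authors with BWA (genome build hg38), and MACS peaks were called for each antibody on its own, with a p-value limit of 0.05. Whether the Input library served as the control for these calls is not given in the sources used here. The MACS release they state does not write the layout of the deposited files, which is that of later releases. Each deposited peak gives its interval and summit, the fold enrichment as a ratio over the local background, −log10 p and −log10 q, and a score equal to 10 times −log10 p, read only for this check. Read totals were not used here. The IgG list covers only chromosomes 1, 10, 21 and Y among the main chromosomes, and Y was left out.

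The summit pileup, a whole number, and a background of at least 1 were solved from fold enrichment and p, with fragments taken as Poisson and with 1 added to pileup and background. For 100% of peaks the listed −log10 p was met within 0.001. This and the other calculations were tested on simulated data. The library background is the lowest solved value. Transcript starts came from GENCODE release 44 on hg38, and sequences from the hg38 reference with its alternate haplotypes left out of copy counts. Scripts used Python 3.11.15, numpy 2.4.6, pandas 2.3.3, scipy 1.17.1 and pysam 0.24.0.

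Shares have Wilson and differences of shares Newcombe 95% intervals. Medians have order-statistic intervals, which were combined in the same way for a difference of medians. Intervals cover counting error only, and regions with shared fragments are not independent. The members, gene lists and alternatives were chosen with earlier results of these data known. Named are the 8 shared peaks with the highest ZBTB11 pileup, the 8 with the smallest IgG p-value, the 5 with the largest and the 5 with the smallest ratio, the 3 with the largest summit distance, 2 on each side of the width limit, the 5 strongest ZBTB11-only peaks, ATPAF1, and at most 4 shared peaks per gene list. Others are said to be chosen after their values were seen. Some genes and sequences that this rule names are not reported here.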

Additional observations from a re-analysis of the deposited data

How the results depend on the processing

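In all, 7 results were recomputed under 81 alternatives. Values stayed within the interval first given under 52 of them, moved out of it under 26 and changed sign under 3. No paired analysis was possible because each antibody has 1 library. A minimum width of 300 bp gave an overlap share of 18.9%, a summit distance of 226 bp, a ratio of 1.72 and a GC difference of 14.4 points. A minimum width of 800 bp gave 43.1%, 314 bp and 3.44, and differences of -0.498 points in GC, 0.762 in the motif, 2.08 in summits within 100 bp of a start and 0.274 in protein-coding genes. With starts within 1 kb the overlap was 34.1%, the GC difference 3.98 and that in summits near a start 9.64. When the ZBTB11 peak had to cover at least 50% of the IgG peak, the overlap was 22.6%, the distance 208 bp and the GC difference 7.71. The overlap was 25.9% with IgG peaks of p 0.01 or less and 31.5% with starts of protein-coding genes only. The ratio was 1.80 from the deposited fold enrichment. The GC difference was 12.4 without chromosome 1 and 7.65 over whole peaks. A limit of 50 bp to a start gave 9.41 points. Among peaks with a ZBTB11 pileup under 20, differences were 13.9 points in GC and 11.96 in protein-coding genes. Among those of 20 or more they were 0.0 in GC, -1.53 in the motif, 1.60 in summits near a start and -7.24 (-13.2 to -1.41) in protein-coding genes. Thus, the differences between the lists depend on width and strength, and beyond the counts by pileup class the cause was not tested. With 7 IgG fragments at the median shared peak, counting error limits each single ratio and IgG summit position.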
